A study of Mus musculus with 4 samples.

Results

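Apoe, Apod, Apoc1, Apol6, Pltp, Abca1, Abcg1, Scarb1, Lcat and Lipg were examined as a set of apolipoprotein and cholesterol efflux genes. The members were taken by symbol, and 10 of 10 were found, each on 1 row, among the 55487 genes counted. All 10 had enough counts to be tested, together with 22485 genes in all. The libraries came from whole mammary fat pad (MFP) of female C57BL/6J mice, 2 aged samples at 14 months and 2 young samples at 8 weeks, with no treatment or engineered allele named for either age. Adipocytes were not isolated before lysis, so the pad's cell types are mixed in each library and, for every gene below, fewer cells of a type cannot be told apart from less RNA per cell. The labels call the samples biological replicates and do not say how many animals or pads went into each. Total RNA depleted of ribosomal RNA was sequenced, and between 68803304 and 98402403 reads per library were counted on genes.

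Cells cannot break down the sterol ring, and a peripheral tissue therefore exports surplus cholesterol to lipoproteins, which carry it to the liver. Abca1 loads cholesterol and phospholipid onto lipid-poor apolipoproteins, Abcg1 onto the particles that have formed, and Scarb1 lets cholesterol pass between the cell membrane and high-density lipoprotein (HDL). In the circulation Lcat esterifies the cholesterol, Pltp moves phospholipid between particles, and Lipg hydrolyses HDL phospholipid. Adipose tissue holds a large pool of free cholesterol, and its adipocytes and macrophages make Apoe. Several of these genes, among them Abca1, Abcg1, Apoe, Apoc1 and Pltp, are textbook targets of the liver X receptors (LXR), which bind DNA with a retinoid X receptor (RXR) at direct repeats spaced by 4 bases, called DR4.

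Promoter sequences were searched because several members share this regulator. RefSeq windows of 300 bases (GRCm38.p6, 250 bases before to 50 after a transcription start) were given for 5 of the 10 members, namely Apoe, Apod, Abca1, Pltp and Lcat. A DR4 was taken as a repeat of the letters NGGTNA, 4 bases apart, on either strand. Such a repeat was present in the window of Abca1 and in those of none of the other 4 members, whereas 0.718% of all 32851 windows held one. The same letters 1 base apart, the DR1 repeat that peroxisome proliferator-activated receptors bind with RXR, were in no member window and in 1.1% of all windows. The 150 bases before the start are shown for Abca1, with the DR4 in capitals, and for Pltp, the member with the largest age difference, where no base is marked. A match describes the letters only and is not evidence of a bound site.
Abca1, chr4:53159896-53160045, minus strand: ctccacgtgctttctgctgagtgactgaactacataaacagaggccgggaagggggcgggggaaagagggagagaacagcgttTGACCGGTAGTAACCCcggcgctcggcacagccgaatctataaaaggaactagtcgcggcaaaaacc
Pltp, chr2:164857709-164857858, minus strand: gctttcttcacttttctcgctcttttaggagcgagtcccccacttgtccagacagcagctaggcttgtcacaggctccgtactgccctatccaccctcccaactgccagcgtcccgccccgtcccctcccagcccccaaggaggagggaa
The Abca1 repeat reads on the strand opposite to the gene and lies at chr4:53159947-53159962. In the printed sequence, which follows the strand of the gene, its first capital letter is 67 bases before the start.

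Libraries did not differ by age alone. The 10 adipocyte markers summed to 15614 and 13002 CPM in the aged and to 11059 and 11200 CPM in the young samples. Here CPM is the gene's count relative to the library size scaled by TMM (trimmed mean of M values). Adipocyte RNA was thus present in each library. The 12 skeletal muscle markers summed to 39258 and 62698 CPM in the aged samples against 10222 and 14352 CPM in the young. Young replicate 1 stood apart through lymphocyte genes, with 558.7 CPM over the 6 T cell markers and 314.2 CPM over the 6 B and plasma cell markers. The 3 other libraries had 4.16 to 48.1 CPM and 2.34 to 157 CPM of these lists. The plasma cell markers Jchain and Mzb1 were instead highest in aged replicate 2, with Jchain at 113 CPM. All 12 macrophage markers were detected. They summed to 415.8 and 512 CPM in the aged samples and to 636 and 300.3 CPM in the young. The value of young replicate 1 was mostly Lyz2 (374.5 CPM). Gene by gene, 10 of the 12 had a higher and 2 a lower fitted level in aged MFP (list median log2 fold change 0.51). Both aged samples lay above both young samples for 3 of them, Adgre1, Csf1r and Mrc1, and for 23.3% of all genes tested. Results that rest on young replicate 1 are given without it below, as are those that rest on aged replicate 1.

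The comparison of aged with young MFP asked how transcripts of the mammary fat pad differ with age. Pltp was the member with the clearest difference, at 2.43 times the young mean in aged MFP and with no overlap of the ages. Apol6 and Abca1 were also higher, and Lcat lower, in both aged samples than in both young samples, while Apoe, Apod, Apoc1, Abcg1, Scarb1 and Lipg overlapped between the ages. EdgeR's quasi-likelihood test called none of the 10 members at a Benjamini-Hochberg adjusted p of 0.05 over all genes tested, and it called 0% of the 22485 genes. At an unadjusted p under 0.05 there was 1 member, Pltp, against 10.5% of all genes in either direction and 7.24% of all genes with a higher aged level. DESeq2 also called 1 member, Pltp, against 3.95% of the 21984 genes to which it gave an adjusted p. Both aged samples lay above both young samples for 3 of 10 members and for 23.3% of all genes, and below them for 1 of 10 members and 22.8% of all genes, so neither count of members stands above the background by more than 1 gene. The median log2 fold change (aged over young throughout) of the 10 members was 0.11, with 5 positive and 5 negative values, beside a median of -0.036 over all genes tested.

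**Figure D1:**
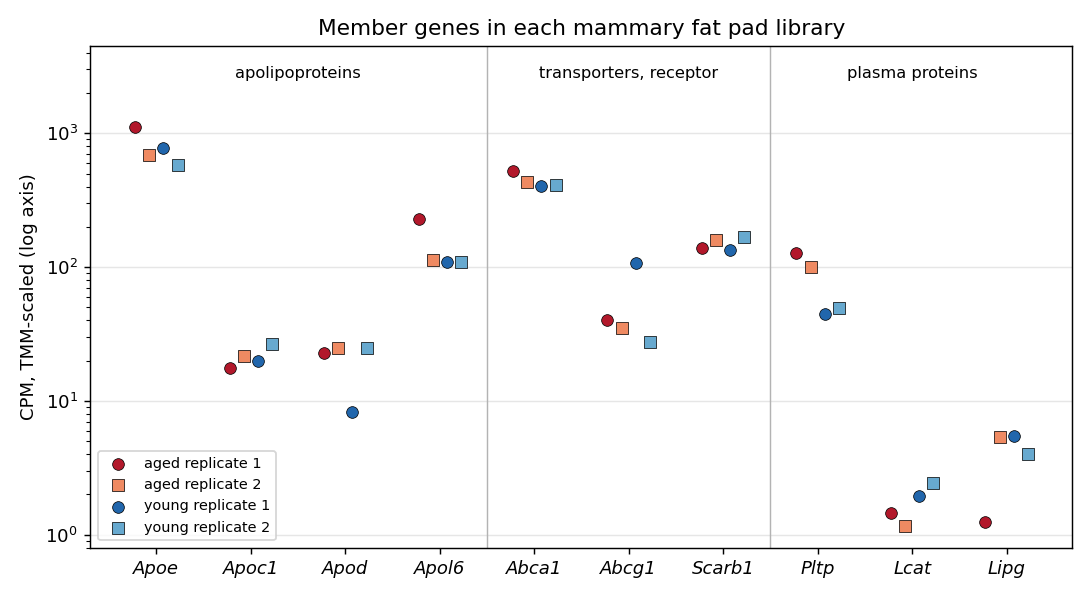
CPM (TMM-scaled, log axis) of the 10 members in each of the 4 libraries, red and orange for aged and dark and light blue for young, circles for replicate 1 and squares for replicate 2, ordered by role. Pltp separates the ages most, at 127 and 101 CPM in aged against 44.9 and 49.1 CPM in young MFP, while Abcg1 and Apod each have 1 young library away from the other 3.

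Apolipoproteins coat lipoprotein particles and give them to receptors. Apoe (ENSMUSG00000002985, chromosome 7, 19696109 to 19699188, minus strand), the ligand by which particles enter cells through the LDL receptor family, was at 1113 and 683 CPM in the aged and 771 and 580.5 CPM in the young samples. Its highest value was in aged replicate 1 and its lowest in young replicate 2, and young replicate 1 lay above aged replicate 2. Aged samples averaged 898 ± 304 CPM (SD, n = 2) and young samples 675.5 ± 134.5 CPM (SD, n = 2), a log2 fold change of 0.41 ± 0.34 (SE, edgeR adjusted p = 0.626). Aged replicate 1 decided this value, since without it the log2 fold change was 0.0041.

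Apoc1 (ENSMUSG00000040564, chromosome 7, 19689481 to 19692660, minus strand), a small apolipoprotein that inhibits lipoprotein lipase and binding to receptors, was at 17.6 and 21.5 CPM in the aged and 19.8 and 26.75 CPM in the young samples. The ages overlapped, with aged replicate 1 lowest and young replicate 2 highest. The log2 fold change was -0.25 ± 0.24 (SE, edgeR adjusted p = 0.67). Apoe and its neighbour Apoc1, which lie in the same cluster and on the same strand, thus had opposite extremes over the 4 libraries. In the rest of that cluster Apoc4 was at 0.0367 to 0.183 CPM and Apoc2 had no count in any library. Tomm40 (chromosome 7, 19701313 to 19715438), on the other side of Apoe, was at 49.3 and 56.0 CPM in the aged and 60.0 and 64.4 CPM in the young samples, with a log2 fold change of -0.24 (edgeR adjusted p = 0.551).

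Apod (ENSMUSG00000022548, chromosome 16, 31296192 to 31314808, minus strand) is a lipocalin that binds small lipids such as arachidonic acid, and it is made by fibroblasts and Schwann cells. It was at 22.95 and 25.0 CPM in the aged samples, at 25.0 CPM in young replicate 2 and at 8.26 CPM in young replicate 1. Thus 3 libraries were near each other and 1 young library was low. The log2 fold change of 0.53 ± 0.57 (SE, edgeR adjusted p = 0.706) became -0.06 without young replicate 1. The Schwann cell list, with all 6 markers detected, summed to 282 and 225.5 CPM in the aged and 205 and 249 CPM in the young samples, and 2 of its markers differed in pattern. Sox10 was at 20.7 CPM in young replicate 1 and at 55.3 to 61.6 CPM in the other 3, whereas Mbp, the leading marker, was at 112.5 CPM in young replicate 1 and at 84.2 to 117 CPM in the other 3. The 8 stromal fibroblast markers were mixed. Pdgfra, Dpt, Dcn, Lum and Cd34 were above in both aged samples (5 of 8, list median log2 fold change 0.46), while the collagens Col1a1 and Col1a2 were below in both and set the sums of 1759 and 1344 CPM in the aged and 2370 and 2749 CPM in the young samples. The part of either cell type in the Apod level was not tested.

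Apol6 (ENSMUSG00000033576, chromosome 15, 77044729 to 77057106, plus strand), an intracellular apolipoprotein L, was at 230 CPM in aged replicate 1, 114 CPM in aged replicate 2, and 108 and 110 CPM in the young samples. Both aged samples were above the young ones, but 3 of the 4 libraries were near each other and aged replicate 1 was high. The log2 fold change was 0.66 ± 0.37 (SE, edgeR adjusted p = 0.547), and 0.050 without aged replicate 1. Mb, which encodes the oxygen store myoglobin of muscle, overlaps Apol6 on the other strand over 64 exonic bases. It was likewise highest in aged replicate 1, at 97.5 CPM, against 10.01 CPM in aged replicate 2 and 5.49 and 1.91 CPM in the young samples. How reads of the overlap were counted depends on the strand setting, which is not given, and their part in the Apol6 value was not tested.

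**Figure D2:**
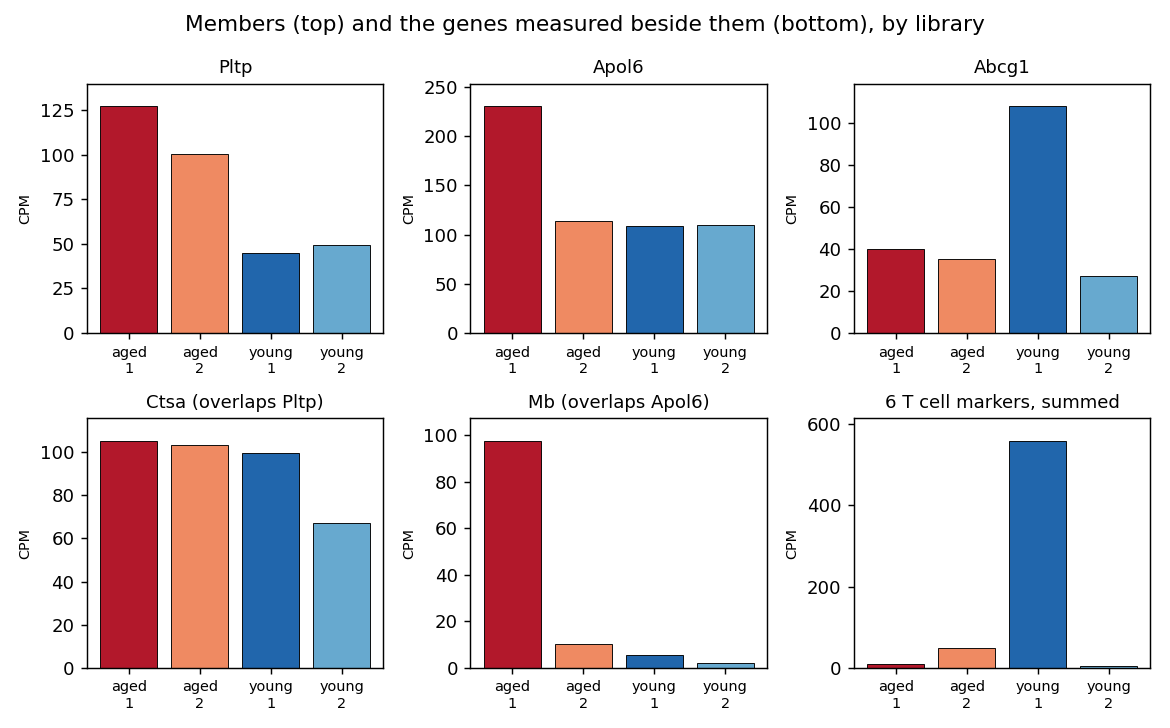
CPM by library, on axes that start at 0, of Pltp, Apol6 and Abcg1 (top) and of Ctsa, Mb and the sum of 6 T cell markers (bottom), measured in the same libraries. Apol6 and Mb are both highest in aged replicate 1, Abcg1 and the T cell sum are both highest in young replicate 1, and Pltp is high in both aged libraries while Ctsa differs little among 3 of the 4.

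Abca1 (ENSMUSG00000015243, chromosome 4, 53030787 to 53159895, minus strand), the transporter that starts HDL formation, was at 527 and 434 CPM in the aged and 403 and 411 CPM in the young samples, with means of 481 ± 65.6 CPM (SD, n = 2) and 407 ± 5.78 CPM (SD, n = 2). The ages did not overlap, although aged replicate 2 was nearer to the young samples than to aged replicate 1. The log2 fold change was 0.24 ± 0.18 (SE, edgeR adjusted p = 0.605), and 0.066 when libraries were scaled by total counts only, a setting that moved the median of all genes from -0.036 to -0.22. Without aged replicate 1 the log2 fold change was 0.083.

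Abcg1 (ENSMUSG00000024030, chromosome 17, 31057675 to 31117988, plus strand), which is active in macrophages and lymphocytes, was at 39.99 and 35.3 CPM in the aged samples. In young MFP it was at 108 CPM in replicate 1 and 27.4 CPM in replicate 2, so that the young samples lay on either side of the aged ones. The young mean of 67.7 ± 57.1 CPM (SD, n = 2) therefore has a spread wider than its distance to the aged mean of 37.7 ± 3.29 CPM (SD, n = 2). The log2 fold change of -0.85 ± 0.68 (SE, edgeR adjusted p = 0.624) turned to 0.46 without young replicate 1, the library with the highest T cell and B cell sums. Each of the 6 T cell markers was highest in young replicate 1, from 57.6 CPM for Cd3d to 124 CPM for Cd3e. Macrophage markers did not stand out there as a list, since 2 of the 12, Lyz2 and Marco, were highest in that library and 5, Adgre1, Mrc1, Cd163, Trem2 and Mertk, were lowest. Lyz2 was at 374.5 CPM against 45.9 to 119 CPM in the others, and Mrc1 at 41.8 CPM against 60.65 to 92.5 CPM. The part of these cells in the Abcg1 level was not tested.

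Scarb1 (ENSMUSG00000037936, chromosome 5, 125277087 to 125341094, minus strand), the HDL receptor, showed the smallest age difference of the 10. It was at 139 and 160.5 CPM in the aged and 133.5 and 168 CPM in the young samples, so that the aged samples lay between the young ones. Means were 150 ± 15.4 CPM (SD, n = 2) and 151 ± 24.6 CPM (SD, n = 2), and the log2 fold change was -0.013 ± 0.18 (SE, edgeR adjusted p = 0.979).

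Among the plasma proteins, Pltp (ENSMUSG00000017754, chromosome 2, 164839518 to 164857711, minus strand), whose promoter is printed above, was at 127 and 101 CPM in the aged and 44.9 and 49.1 CPM in the young samples. Each aged library was thus well above each young one. The means were 114 ± 18.8 CPM (SD, n = 2) and 47.0 ± 3.00 CPM (SD, n = 2), and the gap between the ages exceeded the spread within either. The log2 fold change was 1.28 ± 0.17 (SE, edgeR unadjusted p = 0.00158 and adjusted p = 0.36), and DESeq2 gave 1.28 with an adjusted p of 5.15e-05. This call rests on DESeq2 alone, which called 869 of all genes where edgeR called 0. Over the 4 pairs of an aged with a young library the difference in log2 CPM was 1.503, 1.04, 1.37 and 1.17, and with each library left out the log2 fold change stayed between 1.09 and 1.44. Pltp shares 495 exonic bases with Ctsa, a lysosomal carboxypeptidase gene on the other strand, out of 2562 exonic bases of its own. How reads there were counted depends on the strand setting, which is not given. Ctsa was at 105 and 103.5 CPM in the aged and 99.65 and 67.2 CPM in the young samples, with a log2 fold change of 0.32 ± 0.23 (SE, edgeR adjusted p = 0.588). As given above, the adipocyte and the muscle marker sums were also higher in both aged samples. Macrophage sums overlapped between the ages, while 10 of their 12 markers had a higher and 2 a lower fitted level in aged MFP. The part of these cells and of the overlap in the Pltp level was not tested.

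Lcat and Lipg, which liver and endothelium respectively are known to secrete, were the scarcest members per length. Lcat (ENSMUSG00000035237, chromosome 8, 105939551 to 105943382, minus strand) was at 1.46 and 1.16 CPM in the aged and 1.95 and 2.45 CPM in the young samples, from 103 to 181 counts a library. Both aged samples were below both young samples, with a log2 fold change of -0.75 ± 0.33 (SE, edgeR adjusted p = 0.507) and between -0.94 and -0.57 with each library left out. Lipg (ENSMUSG00000053846, chromosome 18, 74939322 to 74961263, minus strand), the endothelial lipase, was at 1.24 and 5.36 CPM in the aged and 5.50 and 4.03 CPM in the young samples, from 101 to 477 counts a library. Aged replicate 1 alone was low, so that the log2 fold change of -0.53 ± 0.76 (SE, edgeR adjusted p = 0.78) became 0.16 without that library. The 6 endothelial markers, all detected, summed to 834 CPM in aged replicate 1 and to 550, 625.5 and 632 CPM in the other 3. Cdh5, Kdr, Tek, Emcn and Vwf were highest in aged replicate 1. Pecam1 was instead highest in young replicate 1, at 181 CPM against 165 CPM in aged replicate 1. The part of endothelial cells in the Lipg level was not tested. Of the 8 hepatocyte markers Ttr and Cps1 had no counts in any library, and the sum of 230 to 477 CPM was mostly Cyp2e1, while Alb was at 30.7 and 42.6 CPM in the aged and 12.8 and 12.2 CPM in the young samples.

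**Figure D3:**
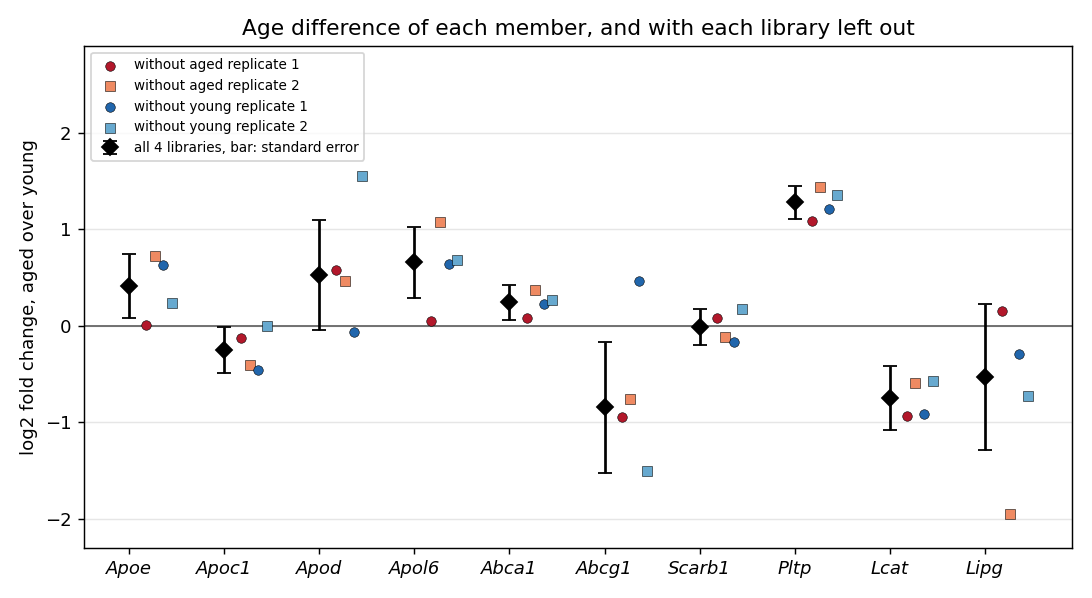
Age difference (log2 fold change, aged over young) of each member with its standard error (black), beside the values with each of the 4 libraries left out (coloured by the library removed). Pltp stays between 1.09 and 1.44, whereas Abcg1, Apod, Lipg and Scarb1 change sign when 1 library is removed and Apoe and Apol6 come to 0.0041 and 0.050 without aged replicate 1.

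Levels of different genes were compared as CPM per kb of summed exons. Apoe led in every library, at 271.5 to 521 CPM per kb, which was 63.6% to 71.5% of the sum over the 10 members. Abca1 followed at 38.9 to 50.9 CPM per kb, and its values overlapped those of Pltp (17.5 to 49.7) and Apol6 (24.1 to 51.2), as these did those of Apoc1 (23.6 to 35.95 CPM per kb). Scarb1, at 15.7 to 19.8 CPM per kb, overlapped Pltp only in the young samples. Apod (3.21 to 9.71 CPM per kb) and Abcg1 (3.75 to 14.8) could not be ordered, nor could Lcat (0.862 to 1.83) and Lipg (0.262 to 1.17). Pltp ranked behind Apoc1, Apol6 and Abca1 in both young libraries, ahead of Apoc1 in both aged libraries and ahead of Apol6 in aged replicate 2. The order within the middle of the list depended on the length used: with the longest transcript in place of summed exons, Apol6 at a mean of 60.8 CPM per kb and Scarb1 at 48.6 came next after Apoe, and Pltp at 36.15 came after Abca1 and Apoc1. That mean is over both ages: in each aged library Pltp, at 57.2 and 45.2 CPM per kb of longest transcript, was ahead of Abca1 (51.4 and 42.3) and Apoc1 (33.0 and 40.4), and in each young library, at 20.2 and 22.1, it was behind both.

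**Figure D4:**
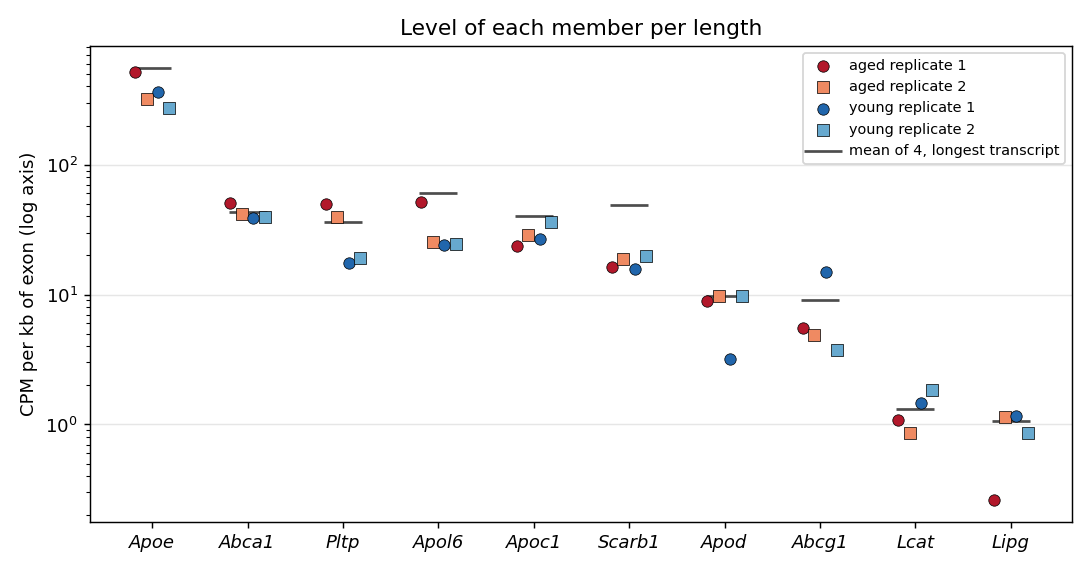
Level of each member per length (CPM per kb of summed exons, log axis) in the 4 libraries, ordered by their mean, with a grey dash for the mean when the longest transcript is used. Apoe lies above all others in each library at 271.5 to 521 CPM per kb, and the dash puts Scarb1, at a mean of 17.7 by summed exons, at 48.6 CPM per kb.

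Patterns over the 4 libraries were compared by the root mean square difference of log2 CPM, each gene centred on its own mean, among the members and the other lipid transport genes tested (94 genes for each member). Only 4 samples enter, so these are descriptions. The measure also depends on how much each gene varied, so genes that varied little come out close to each other. The closest pair of members was Apoc1 and Scarb1 (0.13). Apol6 and Apoe were also each other's nearest member (0.21), and the gene nearest to both was Lbp, the lipopolysaccharide binding protein (0.17 and 0.15). Abca1 was nearest to Abca3 (0.073) and Scarb1 to Srebf1 (0.051). Apoc1 was nearest to Mttp (0.090), Apod to Abca6 (0.14), Pltp to Nr1h4 (0.14), Lcat to Stard3 (0.22), Abcg1 to Apol9b (0.22) and Lipg to Apoc3 (0.31). The nearest gene to Pltp, the bile acid receptor Nr1h4, was itself scarce, at 0.636 and 0.595 CPM in the aged and 0.281 and 0.285 CPM in the young samples.

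The other genes of these pathways were followed as 5 lists of 103 genes in all, of which 85 were tested. EdgeR's quasi-likelihood test called 0 of them. At an unadjusted p under 0.05 there were 12 (10 higher and 2 lower in aged MFP), against the 10.5% of all genes given above. DESeq2 called 3, all higher, against 3.95% of the genes to which it gave an adjusted p. Of its 869 calls over all genes, 713 were higher in aged MFP. The median log2 fold change of the genes tested from these lists was 0.18, with 53 positive and 32 negative values. Over all genes tested, 10558 values were positive and 11927 negative.

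Of 28 other apolipoproteins, 16 were tested and 3 had no count in any library. The median log2 fold change was -0.30 (6 positive, 10 negative), and neither edgeR nor DESeq2 called any of them. Apolipoproteins known from liver and gut were scarce to different degrees. Apoc3 was at 0.893 to 2.57 CPM and Apoa1 at 0.0488 to 0.163 CPM, and Apob, at no more than 0.0136 CPM, stayed under the 0.0337 to 0.0407 CPM that 3 counts make. The largest differences were those of Apol7c, at 60.25 CPM in young replicate 1 and 0.0813 to 0.988 CPM in the other 3 libraries, and Apol7e, at 15.1 CPM in young replicate 1 and 0.122 to 1.24 CPM elsewhere. Both therefore followed the library with the lymphocyte genes. Their log2 fold changes of -5.75 and -3.28 (adjusted p of 0.532 and 0.569 from edgeR) reached 2.75 and 2.67 without that library.

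Of 16 other sterol and phospholipid transporters, 14 were tested (11 positive, 3 negative, median 0.35) and DESeq2 called 1, higher in aged MFP. This was Abcb4, the phosphatidylcholine floppase of bile, at 32.3 and 52.4 CPM in the aged and 6.79 and 7.74 CPM in the young samples. Its log2 fold change of 2.54 ± 0.31 (SE, edgeR adjusted p = 0.36 and 8.36e-10 from DESeq2) was between 2.15 and 2.84 with each library left out. Aged replicate 2 was also the library with the highest muscle marker sum, whose part in the Abcb4 level was not tested. Abcg3 was at 18.5 CPM in young replicate 1 and at 2.08 to 4.08 CPM in the other libraries, a log2 fold change of -1.74 (edgeR adjusted p = 0.567) that was 0.55 without that library.

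Of 15 sterol sensors and their partners, 14 were tested (9 positive, 5 negative, median 0.11) and DESeq2 called 2, both higher and both RXR genes. Rxra was at 223 and 225 CPM in the aged and 119 and 140 CPM in the young samples, giving a log2 fold change of 0.78 ± 0.15 (SE, edgeR adjusted p = 0.37 and 0.0125 from DESeq2). Rxrg, at 15.9 and 16.3 CPM against 7.98 and 10.1 CPM, had a log2 fold change of 0.83 ± 0.21 (SE, edgeR adjusted p = 0.41 and 0.0444 from DESeq2). The remaining RXR gene, Rxrb, did not differ beyond its spread, at 48.3 and 46.8 CPM in the aged and 52.5 and 44.5 CPM in the young samples, with a log2 fold change of -0.029 ± 0.15 (SE, adjusted p = 0.944 in edgeR and 0.979 in DESeq2). The LXR genes, like Rxrb named here after their values were seen, had log2 fold changes of -0.10 ± 0.13 (SE, edgeR adjusted p = 0.737) for Nr1h3 and 0.15 ± 0.12 (SE, edgeR adjusted p = 0.619) for Nr1h2.

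Of 22 lipases, regulators and transfer proteins of lipoproteins, 20 were tested (14 positive, 6 negative, median 0.29), with none called by edgeR or DESeq2. Pcsk6, a proprotein convertase, was at 89.7 and 49.0 CPM in the aged and 30.9 and 32.0 CPM in the young samples, giving a log2 fold change of 1.14 (edgeR adjusted p = 0.431) that was 0.63 without aged replicate 1. Pla2g7, the lipoprotein-associated phospholipase, was at 10.5 and 17.98 CPM against 7.91 and 6.72 CPM, a log2 fold change of 0.96 (edgeR adjusted p = 0.466) that was 0.52 without aged replicate 2. Of 22 genes of cholesterol storage, hydrolysis and trafficking, 21 were tested (13 positive, 8 negative, median 0.19), with none called by either tool. The largest differences were both downward, in Gramd1b and Gramd1a, which encode carriers of cholesterol from the plasma membrane to the endoplasmic reticulum. Gramd1b was at 23.0 and 23.5 CPM in the aged and 73.1 and 35.35 CPM in the young samples, and Gramd1a at 77.5 and 73.9 CPM against 218 and 109 CPM. Their log2 fold changes were -1.22 and -1.11 (adjusted p of 0.456 and 0.46 from edgeR) and, without young replicate 1, the highest in both, -0.61 and -0.53.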

How the data were processed

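For each of 4 libraries, the values deposited are raw read counts by gene, with no normalization, filter or pooling. The submitters' processing notes name featureCounts, R 3.6.1 and the build GRCm38. The aligner, the annotation and the strand setting are not given in the sources used here, although the library kit keeps the strand. Samples were grouped by the age word and number of their titles. With R 4.3.3, edgeR 4.0.16 and DESeq2 1.42.0, genes kept by filterByExpr entered a quasi-likelihood fit (glmQLFit, glmQLFTest, TMM scaling) with age as the only term and Benjamini-Hochberg adjustment over all genes. A standard error is the log2 fold change divided by the square root of F. The study's own test for these data was DESeq2, run here as an alternative on genes with at least 1 count. Log2 CPM used a prior count of 2. Each library's depth makes 3 counts 0.0337 to 0.0407 CPM, which covers counting error only.

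Positions, overlaps and lengths are from GENCODE M21 on GRCm38, which held 55141 of the 55487 identifiers. With 2 samples against 2, the smallest two-sided p of an exact permutation test is 0.333, and nothing says how animals map to samples, so p-values measure the spread between these samples. Members and gene lists were chosen with earlier results of these data known. Named beside the members were, of each list, the genes past the adjusted p and the 2 with the largest absolute log2 fold change at a mean of at least 1 CPM, and for each member the gene nearest in pattern. Neighbours of Apoe, overlapping genes, Apoa1, Apob, Apoc3 and single markers were named after their values were seen. Alternatives were other scalings and filters, the replicate number as a block, DESeq2, edgeR's newer, non-legacy fit, and each library left out. The block with crossed numbers was added after seeing the data.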

Additional observations from a re-analysis of the deposited data

How the results depend on the processing

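The count of members called at an adjusted p under 0.05 was 0 in edgeR's test and under each of its alternatives, and 1 (Pltp) in DESeq2 or at an unadjusted p under 0.05. The count over the other lipid transport genes was 0, with 3 in DESeq2 and 12 at an unadjusted p. DESeq2 called 869 of all genes and edgeR 0, so the calls of Pltp, Abcb4, Rxra and Rxrg rest on DESeq2 alone. The median log2 fold change of the members, 0.11, was -0.066 with libraries scaled by total counts only, and between 0.063 and 0.20 with each library left out. Among the members, Pltp, Apol6, Abca1, Lcat, Apoe and Apoc1 kept their sign in all 13 alternatives, although Apoc1 came to -0.0075 without young replicate 2. The sign turned without 1 library for Apod (range -0.062 to 1.55), Abcg1 (-1.51 to 0.46), Scarb1 (-0.17 to 0.18, also 0.077 without aged replicate 1) and Lipg (-1.95 to 0.16). With the replicate number as a block, no member was called and Pltp was at 1.27 (edgeR adjusted p = 0.602), as with crossed numbers (1.27, adjusted p = 0.388). Over 22485 genes, same-numbered samples deviated from their age means with a correlation of -0.48, so the numbers do not pair them. With 2 samples of each age, samples with crossed numbers therefore deviated together. The running numbers in the titles place aged replicate 1 beside young replicate 2, and young replicate 1 beside aged replicate 2. What these pairs share was not tested. The block changed no other call. Leaving out a library leaves 1 age with a lone sample, assumed to vary like the other age. Depth limits Lcat and Lipg most, at 101 to 477 counts per library.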
